A study of Caenorhabditis elegans with 44 samples.

Results

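The comparison set the small RNAs of worms taken 12, 13 and 14 h after plating on food against those taken 5, 6 and 7 h after plating, in order to separate changes that lasted after feeding from changes that belong to the molting cycle, which takes about 7 h under these conditions. Each later hour was paired with the earlier hour at the same nominal phase, 12 h with 5 h, 13 h with 6 h and 14 h with 7 h. The members were the mature microRNA strands with a mean raw count of at least 10 over all 44 hourly libraries of the time course, which were 272 of the 437 strands in the count table. All animals were wild-type N2 *Caenorhabditis elegans* with no treatment. Eggs had been hatched without food, so that the larvae were arrested at L1, and the larvae were then plated on bacteria at 25 °C with 2000 worms per plate.

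Each hour was represented by 1 library of pooled whole animals, so the groups held 3 libraries of 12–14 h and 3 libraries of 5–7 h, and the hours within a group were different times rather than replicates. The p-values given here thus reflect only the scatter between hours of one time course. Library totals lay between 10278113 and 11380224 counts at 12–14 h and between 9344199 and 10757192 counts at 5–7 h. Levels are given as normalised counts, that is, counts scaled to the mean library total. In whole animals, fewer cells that express a microRNA and less of it in each cell cannot be told apart.

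A microRNA is cut from a hairpin precursor as a duplex of a 5p and a 3p strand. The guide is usually kept by an Argonaute protein, where it silences messenger RNAs that pair with its seed, and the passenger is usually lost. The term guide is used here for the strand with the higher mean level over the time course. *C. elegans* larvae that hatch without food stop developing, and once they are fed a temporal program of cell divisions resumes in which lin-4 and the let-7 family switch off genes of earlier larval stages. Both strands of 102 hairpins were tested, and 68 further strands had no tested partner.

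The table of 272 strands reached down to low levels. The strands just inside the limit were miR-8189-3p and miR-392-5p, each with a mean of 10.2 raw counts over the 44 libraries, and those just outside it were miR-4806-3p (9.80) and miR-1819-3p (8.70). These were chosen by their place at the limit. At least 1 count was present in each of the 6 compared libraries for 262 strands, while 21 strands averaged under 10 counts over them and 1 had no count in any.

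Most strands were near the same level one cycle later. The difference was under 0.5 on the log2 scale, in either direction, for 158 of the 272 strands (58.1%), and the median over all strands was 0.03. A strand was called where the Benjamini-Hochberg adjusted p of edgeR's quasi-likelihood test, with the phase pair as a block, was under 0.05 and the difference was at least 1 on the log2 scale. By this rule 39 strands changed (14.3%), of which 29 rose (10.7%) and 10 fell (3.68%). By adjusted p alone 49 strands passed.

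Rises and falls differed in size. The 29 risen strands had a median log2 difference of 2.42 (5.34-fold), and 18 of them exceeded 2 on the log2 scale. The 10 fallen strands had a median of -1.28, and the largest fall was -1.52. Together the risen strands took 3.57% to 4.18% of the counts of a library at 12–14 h, against 0.794% to 1.27% at 5–7 h. The fallen strands took 1.60% to 1.93% at 12–14 h, against 3.96% to 4.67% at 5–7 h.

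**Figure D1:**
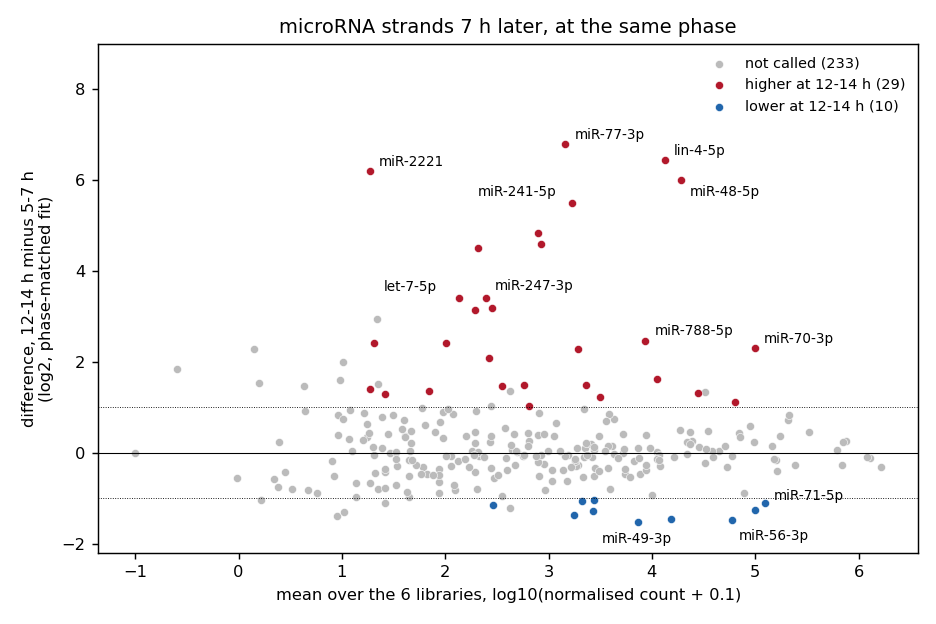
The log2 difference of 12–14 h minus 5–7 h from the phase-matched fit (y axis) is plotted against the mean normalised count over the 6 libraries (x axis, log10) for 272 strands, 1 point each. Red points mark the 29 strands that rose, blue points the 10 that fell and grey points the 233 not called, and the risen strands reach 6.80 whereas no fallen strand passes -1.52.

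The counts depended on single hours. In the paired fit, leaving out a library also removes its partner from the comparison and leaves 1 residual degree of freedom instead of 2. Without 13 h or 6 h, 9 strands rose and 0 fell by edgeR, and without 14 h or 7 h, 8 rose and 0 fell. Without 12 h or 5 h, 36 rose and 16 fell. With all 6 libraries 94 strands had an unadjusted p under 0.05, and DESeq2 called 28 risen and 11 fallen. In a fit without the pairs, which called 27 risen and 10 fallen strands, the omission of any single library left 17 to 29 risen and 8 to 10 fallen, and the lowest of these risen counts, 17, was without 6 h. Whichever single library was omitted, 16 of the 29 risen and 7 of the 10 fallen strands kept their call in the unpaired fit, and 5 and 0 in the paired fit.

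The temporal regulators of larval fate formed the leading group of rises. Of the let-7 family list, which held 5 guides, 4 rose and 0 fell, against 10.7% risen among all tested strands, with a median log2 difference of 3.41, against 0.03 over all of them. Their targets include lin-41 and hbl-1, regulators of the passage from the earlier to the later larval programs.

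The guide miR-48-5p had 24441, 32492 and 55618 normalised counts at 12, 13 and 14 h, against 271, 469 and 1289 at 5, 6 and 7 h. All later values lay far above the earlier ones, and both windows climbed with the hour. The log2 difference was 6.01 ± 0.28 (SE), a 64.4-fold increase (edgeR adjusted p = 0.000197). Its neighbour on chromosome V, miR-241-5p, had 2041, 2517 and 5176 normalised counts at 12, 13 and 14 h, against 18.7, 53.8 and 233 at 5, 6 and 7 h. The windows again did not overlap, and the log2 difference was 5.50 ± 0.49 (edgeR adjusted p = 0.00141). In the WBcel235 annotation mir-48 lies at chrV:14364412-14364509 and mir-241 at chrV:14366188-14366283, both on the minus strand between protein-coding genes.

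The remaining let-7 relatives rose less. The guide miR-84-5p, from the X chromosome, had 14428, 13502 and 23513 normalised counts at 12, 13 and 14 h, against 4153, 5464 and 6913 at 5, 6 and 7 h, a log2 difference of 1.62 ± 0.17. The let-7-5p guide itself, known above all for the passage from larva to adult, had 203, 188 and 360.0 normalised counts at 12, 13 and 14 h, against 16.7, 19.0 and 35.1 at 5, 6 and 7 h. At this stage it was thus a rare strand, but its levels did not overlap between the windows, and the log2 difference was 3.41 ± 0.24 (edgeR adjusted p = 0.000686). The exception on the list was miR-795-5p, with 4963, 5133 and 6032 normalised counts at 12, 13 and 14 h and 3149, 3156 and 3294 at 5, 6 and 7 h. Its windows did not overlap either, but its log2 difference of 0.74 ± 0.16 (adjusted p = 0.0223) was under the limit of 1.

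The largest change in this group was that of lin-4-5p, the guide that represses lin-14 and so lets larvae leave the L1 program. It had 26972, 25826 and 24893 normalised counts at 12, 13 and 14 h, against 89.4, 159 and 2725 at 5, 6 and 7 h. The later window was level, whereas the earlier one covered a steep climb, so that the log2 differences of the 3 phase pairs were 8.11, 7.27 and 3.19. The fitted log2 difference was 6.44 ± 1.20 (edgeR adjusted p = 0.0140). It did not pass without the pairs (4.71, adjusted p = 0.0519) or without 13 h or 6 h (adjusted p = 0.158 and 0.160), although the windows did not overlap in any of these cases. Lin-4 is annotated at chrII:5902254-5902347 on the plus strand, in an intron of F59G1.4.

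The lin-4 relative miR-237-5p was not called. It had 21554, 25398 and 102973 normalised counts at 12, 13 and 14 h, against 12295, 15364 and 18231 at 5, 6 and 7 h. The windows did not overlap, but the last hour stood far above the other 2 of its window, and the log2 difference of 1.33 ± 0.37 had an adjusted p of 0.0627. Thus 1 of the 2 members of the lin-4 list rose and 0 fell, against 10.7% risen and 3.68% fallen among all tested strands.

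**Figure D2:**
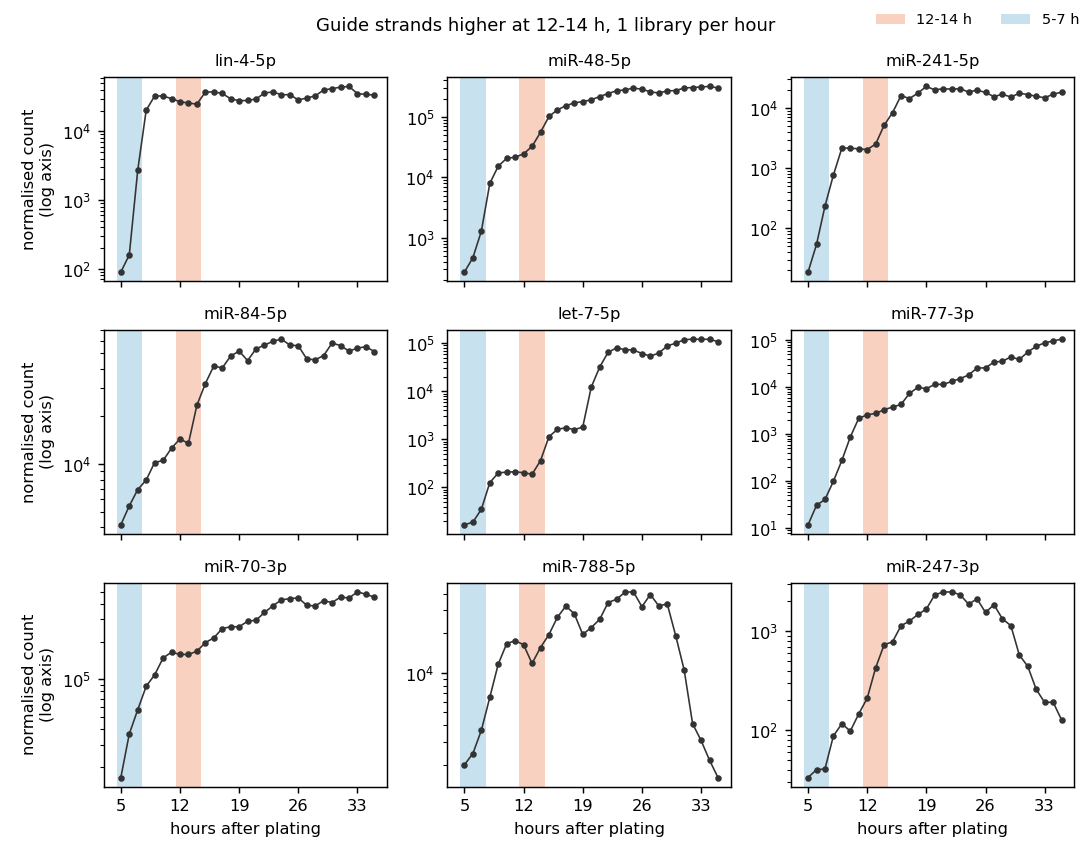
Normalised counts (log axis) from 5 h to 35 h after plating, 1 library per hour, for 9 guides that rose, with 12–14 h shaded orange and 5–7 h shaded blue. The lin-4-5p guide is level from 9 h, let-7-5p is near 200 normalised counts at 12 h and 13 h and climbs in later steps, and miR-788-5p and miR-247-3p decline in the last hours shown.

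Outside the families of temporal regulators, the largest rise was that of the miR-77 hairpin, at chrII:12519268-12519367 between protein-coding genes. The guide miR-77-3p had 2578, 2760 and 3303 normalised counts at 12, 13 and 14 h, against 11.8, 30.6 and 40.7 at 5, 6 and 7 h. This was the largest log2 difference of the 272 strands, 6.80 ± 0.37, or 111-fold (edgeR adjusted p = 0.000268). Its passenger, miR-77-5p, had 599, 256 and 317 normalised counts at 12, 13 and 14 h, against 2.95, 9.49 and 53.2 at 5, 6 and 7 h. It rose by 4.51 ± 0.88 on the log2 scale, with its highest value at 12 h and its lowest at 5 h.

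The most abundant risen strand was miR-70-3p, from an intron of pmp-5 on the same strand at chrV:6665536-6665635. It had 157862, 157712 and 167312 normalised counts at 12, 13 and 14 h, against 16494, 36711 and 57219 at 5, 6 and 7 h. The later window was level and the earlier window climbed, and the log2 difference was 2.30 ± 0.34 (edgeR adjusted p = 0.00571). This strand alone made up 1.52% of the counts of 12–14 h, against 0.348% of those of 5–7 h.

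Several rises came from the X chromosome, which supplied 13 of the 29 risen and 3 of the 10 fallen strands, against 72 of the 272 tested. Both strands of miR-797, miR-788 and miR-84 were among the 13. Locations were matched for 150 of 170 hairpins. Strands of the other hairpins, the risen miR-239b-5p and miR-239a-3p among them, had no location and were not counted as X-linked. The guides of mir-247 (chrX:4756971-4757068) and mir-797 (chrX:4757109-4757197), next to each other on the plus strand, both rose. The miR-247-3p guide had 211, 428 and 729 normalised counts at 12, 13 and 14 h, against 33.4, 40.1 and 40.7 at 5, 6 and 7 h. The miR-797-3p guide had 392, 455 and 679 at 12, 13 and 14 h, against 36.4, 45.4 and 96.2 at 5, 6 and 7 h. Their log2 differences were 3.42 ± 0.35 and 3.18 ± 0.25, and neither overlapped between windows.

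A further X-linked guide, miR-788-5p (chrX:8485294-8485371), had 16386, 11801 and 15612 normalised counts at 12, 13 and 14 h, against 1998, 2433 and 3653 at 5, 6 and 7 h. All later values exceeded all earlier ones, and the log2 difference was 2.47 ± 0.23. Its passenger miR-788-3p rose by 2.09 ± 0.50 (adjusted p = 0.0360), but this call was lost with TMM factors (0.0577), DESeq2 size factors (0.0719), limma with 8 added (0.0535) or 1 added (0.0696), without the pairs (0.189) and in the window of 11–13 h (0.166).

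The guide miR-246-3p, which is linked to lifespan in adults, had 416, 382 and 248 normalised counts at 12, 13 and 14 h, against 60.9, 28.5 and 31.7 at 5, 6 and 7 h, a log2 difference of 3.14 ± 0.29. Its level was not steady between the windows, since it stood at 11.6 at 8 h and 10.8 at 9 h. The guide miR-238-3p, also linked to lifespan, had 79141, 94556 and 86437 normalised counts at 12, 13 and 14 h, against 41442, 37951 and 40853 at 5, 6 and 7 h. This was a 2.16-fold rise with no overlap (log2 1.11 ± 0.14), close enough to the limit of 1 that with TMM factors it was just under it and was not called.

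The guide miR-34-3p had 5085, 4073 and 4071 normalised counts at 12, 13 and 14 h, against 1745, 2014 and 1881 at 5, 6 and 7 h. It rose by 1.22 ± 0.19 on the log2 scale, while its partner miR-34-5p (0.06) was not called. The strands miR-239b-5p (2.28 ± 0.25) and miR-239a-3p (1.47 ± 0.29) also rose. Reads may be shared between miR-239a and miR-239b, whose sequences were not compared here, so the separate values are uncertain. The guide miR-230-5p rose by 1.33 ± 0.14, with no overlap between windows. Its values of 37323, 47186 and 36692 normalised counts at 12, 13 and 14 h stood against 15412, 16951 and 15672 at 5, 6 and 7 h.

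Of the rises not yet described, 5 rested on few counts. The strand miR-2221 had 110 raw counts over the 3 libraries of 12–14 h, against 1 raw count over those of 5–7 h. The ratio of these, scaled by library totals, was 103 with an exact 95% counting interval of 18.1 to 4105, so its fitted log2 difference of 6.20 is poorly fixed by the data. The strands miR-799 (2.43), miR-8208-3p (1.41), miR-2216-5p (1.36) and miR-8193-5p (1.29) averaged under 100 normalised counts over the 6 libraries. Passengers among the rises were miR-48-3p (4.85), miR-241-3p (4.59), miR-797-5p (2.42), miR-238-5p (1.49), miR-84-3p (1.48) and miR-81-5p (1.02) beside those given above.

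The falls comprised 8 guides (7.84% of tested guides), 1 passenger (0.98% of passengers) and 1 strand without a tested partner (1.47% of such strands). The rises comprised 14 guides (13.7%), 9 passengers (8.82%) and 6 strands without a tested partner (8.82%). Of the miR-51 family list, guides that are abundant in embryos and larvae and that are required for embryonic development, 2 of 6 fell and 0 rose, against 3.68% fallen among all tested strands (median log2 difference -0.64, against 0.03 over all strands). The guide miR-56-3p had 38022, 32160 and 24961 normalised counts at 12, 13 and 14 h, against 73111, 100463 and 88829 at 5, 6 and 7 h. The guide miR-51-5p had 65037, 57620 and 53491 normalised counts at 12, 13 and 14 h, against 120472, 164570 and 141051 at 5, 6 and 7 h. Neither overlapped between windows, and the log2 differences were -1.47 ± 0.20 and -1.27 ± 0.16 (edgeR adjusted p = 0.00455 and 0.00344).

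Of the miR-35 family list, guides that are abundant in embryos and act there, 2 of 8 fell and 0 rose, against 3.68% fallen among all tested strands (median -0.55, against 0.03). The guide miR-40-3p had 9324, 9487 and 6130 normalised counts at 12, 13 and 14 h, against 22941, 22851 and 20919 at 5, 6 and 7 h, a log2 difference of -1.45 ± 0.17. The guide miR-42-3p had 1623, 2007 and 1801 at 12, 13 and 14 h, against 2992, 4050 and 4229 at 5, 6 and 7 h, a log2 difference of -1.04 ± 0.17. Both were separated between windows. The values of the other members ran from -0.93 ± 0.14 for miR-39-3p, which passed by adjusted p (0.00571) but not by size, to 0.03 ± 0.20 for miR-38-3p. Summed over the list, the level was 30932 to 39592 normalised counts at 12–14 h, against 59961 to 62593 at 5–7 h. The sum was not lower throughout, since it stood at 94274 at 9 h and 70309 at 16 h, above every 5–7 h value.

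Of a list of 5 strands known from neurons, 2 fell and 0 rose, against 3.68% fallen among all tested strands, and the median log2 difference was -0.49, against 0.03 over all strands. The guide miR-790-5p had 1185, 1090 and 716 normalised counts at 12, 13 and 14 h, against 2538, 2602 and 2363 at 5, 6 and 7 h (-1.36 ± 0.20). The miR-791-3p passenger, from a hairpin known for its function in sensory neurons, fell by 1.15 on the log2 scale, with 190.4, 207 and 145 at 12, 13 and 14 h, against 401, 379.7 and 411 at 5, 6 and 7 h. The list held both strands of miR-791, and the more abundant miR-791-5p guide was at -0.49 and not called. The other list members were not called either, and lsy-6-3p, which sets the identity of a taste neuron, was at -0.33 ± 0.18 and miR-124-3p at -0.18 ± 0.18.

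The fall of miR-71-5p, a guide that prolongs survival in L1 arrest, was among the most abundant changes. It had 67130, 93893 and 76294 normalised counts at 12, 13 and 14 h, against 189723, 178719 and 143589 at 5, 6 and 7 h. The windows did not overlap, and the log2 difference was -1.11 ± 0.16 (edgeR adjusted p = 0.00571), which dropped to -0.92 and out of the calls without 12 h or 5 h. Further falls were those of miR-49-3p (-1.52 ± 0.17), the largest of all, miR-253-3p (-1.28 ± 0.16) and miR-234-3p (-1.05 ± 0.18).

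**Figure D3:**
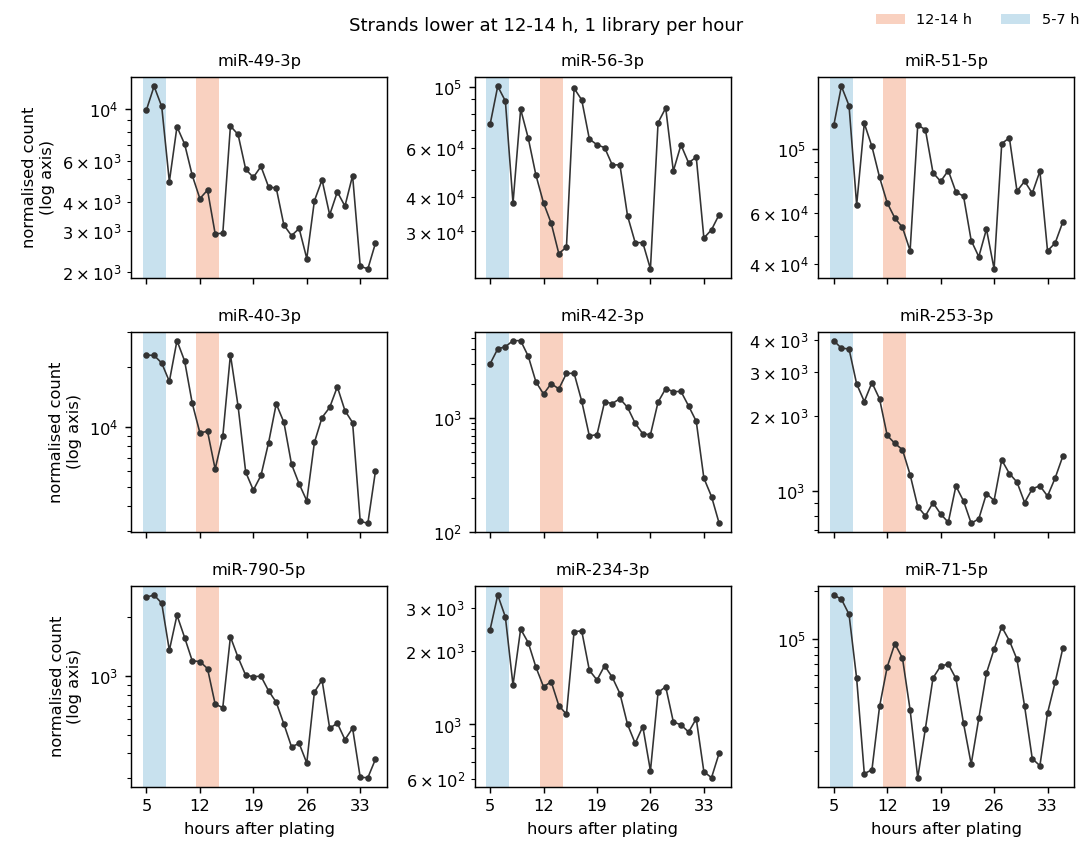
Normalised counts (log axis) from 5 h to 35 h after plating, 1 library per hour, for 9 strands that fell, with 12–14 h shaded orange and 5–7 h shaded blue. The miR-56-3p and miR-51-5p panels step up between 15 h and 16 h and again between 26 h and 27 h, miR-253-3p stays low, and miR-71-5p cycles below its 5–7 h level.

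Several of the fallen strands moved together in steps between single neighbouring libraries. Of the 10 strands, 8 were higher at 9 h than at 8 h, against 59.9% of all tested strands, and 8 were higher at 16 h than at 15 h, against 37.5%. The miR-42-3p guide, counted among the 8 in each case, was all but level. The fallen strands had a median log2 step of 1.16 from 15 h to 16 h, against -0.11 over all 272 strands. At that step miR-56-3p increased 3.75-fold, miR-49-3p 2.88-fold and miR-51-5p 2.72-fold. All 10 were higher at 27 h than at 26 h, against 66.5% of all tested strands. These hours were picked after the values were seen, the steps to 9 h and 16 h were 7 h apart and that to 27 h came 11 h later, and their part in the falls at 12–14 h was not tested.

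For most called strands the change was still present a further cycle on. At 19–21 h, 28 of the 29 risen strands lay wholly above their 5–7 h range, against 32% of all tested strands, and 10 of the 10 fallen strands lay wholly below it, against 28.7% of all tested strands. At 12–14 h itself all 29 and all 10 were separated, against 24.6% (higher) and 17.3% (lower) of all tested strands. That separation follows largely from the calls, which were made on the same libraries. The comparisons at 19–21 h and at 12–14 h share the 5–7 h libraries. The exception was miR-81-5p, whose mean was 450.1 normalised counts at 19–21 h, with values that overlapped the 5–7 h range.

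Over the 21 libraries from 15 h to 35 h, 24 of 29 risen strands stayed above the 5–7 h range at every hour and 7 of 10 fallen strands stayed below it, against 20.2% (above) and 16.9% (below) of all tested strands. The lowest lin-4-5p level in that span was 27880 normalised counts, against a highest of 2725 at 5–7 h. The highest miR-71-5p level in that span was 119804, against a lowest of 143589 at 5–7 h. Of the fallen strands, 7 of 10 were below their 5–7 h range at 16 h, against 37.5% of all tested strands. At that hour miR-56-3p (98832 normalised counts) and miR-51-5p (120730) were back within the range, and miR-40-3p (23057) was slightly above its highest 5–7 h value. The guide miR-788-5p returned to 1597 normalised counts at its lowest, under the lowest of its 5–7 h values.

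The strands of a hairpin did not always change alike. Both strands rose in 7 hairpins, the guide alone was called in 7 and the passenger alone in 2, whereas the guide alone fell in 8, the passenger alone in 1 and both strands in 0. The passenger-to-guide ratio was compared within libraries, where the scaling of libraries plays no part. This ratio changed in 12 of 102 hairpins (11.8%), and was lower at 12–14 h in 7 and higher in 5. It is partly fixed by the calls on single strands, since both use the same libraries.

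The ratio changed most for lin-4, by -4.51 ± 0.44 on the log2 scale (edgeR adjusted p = 8.8e-11). This call was lost without the pairs (-4.92, edgeR adjusted p = 0.0540), without 13 h (-3.70, 0.277) and without 14 h (-5.53, 0.246). The passenger lin-4-3p had 103, 79.2 and 1220 normalised counts at 12, 13 and 14 h, against 8.84, 34.8 and 1119 at 5, 6 and 7 h. It was high at 14 h and 7 h alike and low in the 2 earlier hours of each window, so that the windows overlapped, and its own log2 difference was 1.37 ± 0.61 (adjusted p = 0.183), while its guide rose by 6.44.

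For miR-70 the ratio fell by 2.62 ± 0.35 on the log2 scale. Its passenger miR-70-5p had 121, 180.0 and 392 normalised counts at 12, 13 and 14 h, against 111, 249 and 609.8 at 5, 6 and 7 h, a difference of -0.34 ± 0.24 that was not called. The miR-77 ratio changed by -2.29 ± 0.57, as the guide rose more than the passenger. The other lower ratios were those of miR-230 (-1.20), miR-34 (-1.16), miR-48 (-1.13) and miR-79 (-1.01).

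Of the 5 higher ratios, 4 belonged to hairpins whose guide fell and whose passenger was not called. The miR-51 ratio changed by 1.63 ± 0.34, the miR-56 ratio by 1.51 ± 0.33 and the miR-71 ratio by 1.38 ± 0.36. The passenger miR-71-3p had 38998, 30322 and 13735 normalised counts at 12, 13 and 14 h, against 25165, 23226 and 16090 at 5, 6 and 7 h, with overlap between the windows. The ratio of miR-49 (1.20) was also higher, as was that of miR-4813 (1.21), of which neither strand was called. Without 13 h, 14 h, 6 h or 7 h, 0 ratios passed in edgeR, and without the pairs 5 passed.

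**Figure D4:**
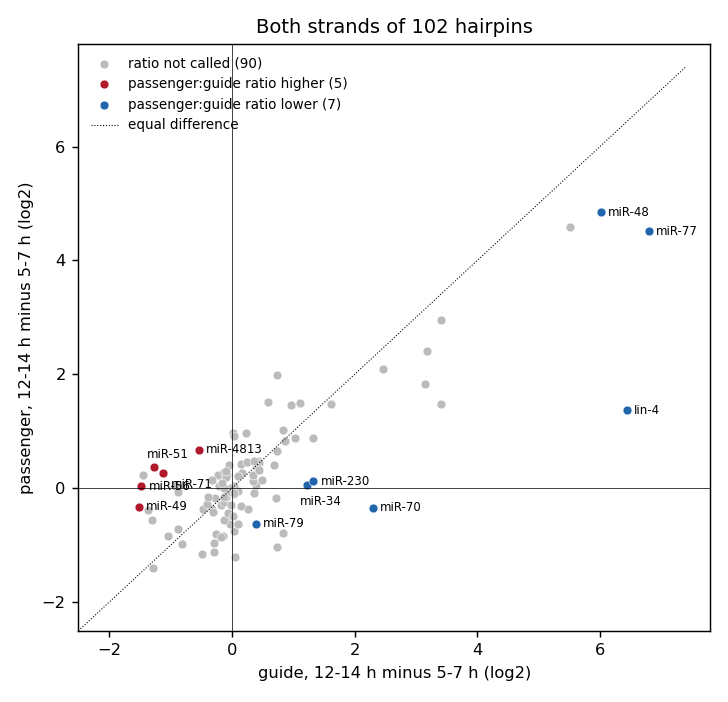
The log2 difference of the passenger (y axis) against that of the guide (x axis), both 12–14 h minus 5–7 h, for 102 hairpins, 1 point each, with a dotted line where both are equal. Blue points mark the 7 hairpins whose passenger-to-guide ratio was lower at 12–14 h and red points the 5 whose ratio was higher, and lin-4 lies farthest below the line, with 6.44 for the guide and 1.37 for the passenger.

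The hourly trends inside the windows were also compared. The trend differed for 7 of 272 strands (2.57%), and for all of these but miR-237-3p the slope was lower in the later window. The lin-4-5p guide changed by -0.06 log2 units per hour from 12 h to 14 h, against 2.53 per hour from 5 h to 7 h. The miR-70-3p guide changed by 0.04 per hour from 12 h to 14 h, against 0.90 per hour from 5 h to 7 h. The passenger of miR-237 went the other way, with 131, 468 and 3279 normalised counts at 12, 13 and 14 h, a slope of 2.33 per hour, against 236, 308 and 428 at 5, 6 and 7 h, a slope of 0.43 per hour. With TMM factors 1 strand passed this test, in place of 7.

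The windows were next set beside a comparison at another phase, 8–10 h against 5–7 h. It shares the 5–7 h libraries with the comparison of 12–14 h, so that the values are given side by side and their overlap is no result. In it 12 strands rose and 3 fell (5.51%). Without 9 h or 6 h, 0 rose and 0 fell by edgeR, and leaving out each other library in turn gave 19 to 25 rises and 7 to 9 falls. Without the pairs, 5 rose and 1 fell.

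By 8–10 h the lin-4-5p guide had a log2 difference of 6.52, not called there, against 6.44 at 12–14 h, and so was already close to its later level. For miR-70-3p the log2 differences were 1.78 at 8–10 h and 2.30 at 12–14 h, and for let-7-5p they were 2.94 and 3.41. Others came up mainly after 10 h. The guide miR-246-3p stood at -0.90 at 8–10 h and 3.14 at 12–14 h, miR-34-3p at -0.33 and 1.22, and miR-230-5p at -0.48 and 1.33. The guide miR-77-3p was at 3.59 at 8–10 h and 6.80 at 12–14 h.

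The miR-71-5p guide was lower than at 5–7 h in both comparisons. It was at -2.88 on the log2 scale at 8–10 h and at -1.11 at 12–14 h, having reached 14383 normalised counts at 9 h. Conversely, miR-38-3p of the miR-35 family was at 1.05 at 8–10 h, where it was called, and at 0.03 at 12–14 h. The passenger miR-230-3p was at -1.57 at 8–10 h, where it was called, and at 0.12 at 12–14 h, with 22632, 32586 and 34264 normalised counts at 12, 13 and 14 h and 24710, 28246 and 28036 at 5, 6 and 7 h. Both strands had 12–14 h values that overlapped those of 5–7 h.

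Whether the 7 h pairing removed the cycle was examined on strands that oscillated at 15–35 h, hours that lie in neither window. In a fit of a 7 h cosine and sine with a linear term, 29 of 272 strands (10.7%) had an adjusted p under 0.05 and an amplitude of at least 0.5 on the log2 scale, 9 guides and 18 passengers among them. Of these 29, 4 were called at 12–14 h (2 rose and 2 fell; 13.8%) and 5 at 8–10 h (2 rose and 3 fell). Of the other 243 strands, 35 were called at 12–14 h (14.4%) and 10 at 8–10 h. The median absolute log2 difference of the 29 was 0.83 at 12–14 h and 0.91 at 8–10 h, and that of the other 243 was 0.40 and 0.23.

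The difference of the oscillating strands from 5–7 h had no low point at 7 h. With 3 h means set against 5–7 h, their median absolute log2 difference was 0.80 at 3 h later, 0.62 at 5 h later, 0.68 at 6 h later, 0.80 at 7 h later and 0.60 at 8 h later, and it was higher at 11 h to 14 h later, between 0.85 and 1.11. Against 12–14 h it was 0.67 at 3 h later, 0.40 at 4 h and at 7 h later, 0.65 at 10 h later, 0.32 at 11 h later, 0.39 at 12 h later and 0.21 at 14 h later, with 0.46 and 0.45 at 6 h and 8 h later. The value at 7 h was thus under its neighbours there, but no lower than at 4 h. The second set uses the same libraries from 15 h on that defined the class, so that a smaller difference there at 14 h is partly built in. The other 243 strands drifted away from 5–7 h by 0.33 at 7 h later and 0.58 at 14 h later.

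**Figure D5:**
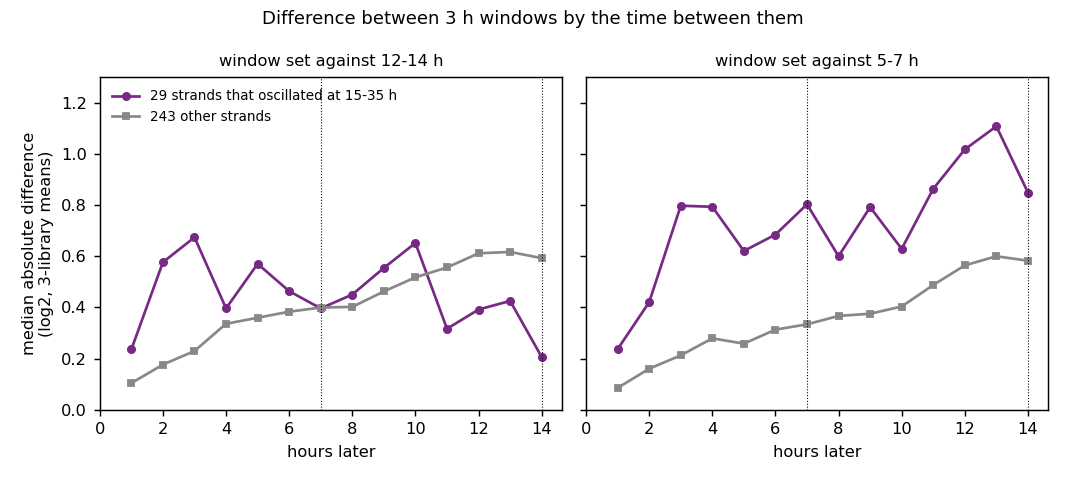
Median absolute log2 difference between 3 h windows (y axis) by the hours between them (x axis), against 12–14 h (left) and against 5–7 h (right), for 29 strands that oscillated at 15–35 h (purple) and 243 others (grey), with dotted lines at 7 h and 14 h. Against 12–14 h the purple line is at 0.40 at both 4 h and 7 h and at its lowest, 0.21, at 14 h, while against 5–7 h it is 0.80 at 7 h.

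Single strands with the largest rhythms differed in this. The passenger miR-235-5p, from a hairpin whose guide is known to hold blast cells quiescent in unfed L1 larvae, had 27.9, 11.3 and 9.05 normalised counts at 12, 13 and 14 h, against 1.97, 1.05 and 9.05 at 5, 6 and 7 h. The windows touched at 9.05, and the log2 difference of 2.0 ± 0.76 was not called (adjusted p = 0.118). At 10 h, between the windows, its level was 377. The guide miR-235-3p had 331711, 298755 and 121972 normalised counts at 12, 13 and 14 h, against 276644, 134825 and 71145 at 5, 6 and 7 h. Both windows declined with the hour and overlapped, and the log2 difference of 0.73 ± 0.19 (adjusted p = 0.0478) was under the limit of 1. The passengers miR-39-5p and miR-37-5p, of the miR-35 family hairpins, were at 0.03 ± 0.25 and -0.29 ± 0.37, close to their 5–7 h levels.

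The bulk of the microRNA pool was not called. The most abundant strand at 12–14 h was miR-228-5p, known from glia and hypodermis, with 1588814, 1392392 and 1433325 normalised counts at 12, 13 and 14 h, against 1750627, 1896275 and 1862758 at 5, 6 and 7 h. The later values were all lower, but the log2 difference of -0.32 ± 0.12 had an adjusted p of 0.0997. The other abundant strands ran from -0.26 ± 0.13 for miR-44-3p to 0.45 ± 0.13 for miR-80-3p, with miR-72-5p (-0.12), miR-57-5p (-0.08), miR-90-3p (0.06), miR-82-3p (0.24) and miR-58a-3p (0.27) between them. Reads may be shared between miR-44-3p and miR-45-3p of the same family, so that their separate levels are uncertain. Their log2 differences were -0.26 and -0.27.

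By family, the miR-58 list, relatives of the insect growth regulator bantam, had 0 of 4 tested members called, with a median of 0.36 and the highest value, 0.84 ± 0.12, at miR-81-3p. The miR-72 list (0 of 3 called, median -0.31) and the miR-64 cluster (0 of 4, median 0.20) were likewise without calls, and so were the muscle guide miR-1-3p (0.03 ± 0.15) and the list of miR-228-5p and miR-57-5p from glia and hypodermis (0 of 2). In the miR-44 list 1 of 4 rose, which was miR-247-3p, and in the miR-2 list 1 of 4 rose, which was miR-797-5p. Among all tested strands 10.7% rose and 3.68% fell. Both of these risen strands come from the neighbouring mir-247 and mir-797 hairpins on the X chromosome. Of 5 strands known from starvation and feeding, lin-4-5p rose and miR-71-5p fell, against the same shares of all tested strands. On this list miR-34-5p was counted as a passenger and was at 0.06 ± 0.19.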

How the data were processed

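Small RNA libraries (Illumina TruSeq kit) of N2 worms were sequenced as 1 library for each hour from 5 h to 48 h. Per the methods, the authors used QuasR for adapter removal, aligned reads with Bowtie to the ce10 genome, and counted same-strand reads starting at annotated mature 5′ ends of miRBase. The authors deposited a table of raw counts per strand, which all tests used, and a table of log2 values. The deposited log2 table, in which 8 was added to scaled counts, was not used for tests. Coordinates are those of WBcel235, found for 150 of 170 hairpins, and none were converted.

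Tests covered strands whose mean over the 44 libraries reached 10 counts, which left out 165, 27 of them with no count at all. Totals ranged from 1669246 to 14672735 counts over the time course. Counting intervals cover counting error only, since PCR copies of a molecule are not independent. The windows were compared in edgeR 4.0.16 (R 4.3.3) by the quasi-likelihood test with total-count scaling, which is that of the study, with the phase pair as a block, 2 residual degrees of freedom and adjustment over all 272 strands. The pairing comes from the nominal phase, since the labels give 1 sample for each hour and no replicate numbers. The strand ratio was tested with the library as a factor, the hourly trend as an interaction of window and hour (at least 0.5 log2 units per hour), and the rhythm on 15–35 h. Scripts were tested on simulated data.

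Alternatives used TMM, DESeq2 1.42.0, limma 3.58.1 with 8 or 1 added, other filters, windows and periods, no pairs, and each library left out. Leaving libraries out of the unpaired fit, the upward steps between neighbouring hours and the intervals from 12–14 h were added after the data were seen. Members, lists and tests were chosen with earlier results of these data known. The strands named were those on the lists, each strand of the lin-4, let-7, miR-235, miR-71, miR-77, miR-788 and miR-247 hairpins, the 12 largest rises and falls among strands averaging 100 or more normalised counts over the 6 libraries, the 8 most abundant, the 8 largest ratio changes, the 6 largest trend differences and the 4 largest rhythms; all further named strands were chosen after their values were seen.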

Additional observations from a re-analysis of the deposited data

Results flagged for a closer look

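The hourly trend inside the window, tested in edgeR as an interaction of window and hour, differed between 12–14 h and 5–7 h for 7 strands. The trend of 12–14 h minus that of 5–7 h was -2.64 log2 units per hour for miR-77-5p (adjusted p = 0.00109), -2.59 for lin-4-5p (0.000288), -1.49 for miR-1-5p (0.0133), -1.25 for miR-788-3p (0.0332), -0.86 for miR-70-3p (0.0177) and -1.18 for miR-241-5p (0.0177). It was 1.90 for miR-237-3p (0.000288). The passenger miR-1-5p, which was not called between the windows, had 3684, 1600 and 1281 normalised counts at 12, 13 and 14 h, against 987, 2944 and 2721 at 5, 6 and 7 h.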

How the results depend on the processing

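Of the 92 named strands, the 39 called ones kept their direction in every alternative that tested them. Direction was not checked for the named strands that were not called. Of 1465 values of named strands under alternatives, 1290 kept their side of the threshold, 156 lost a call and 19 gained one. Counts of 29 risen and 10 fallen strands became 26 and 13 with TMM factors, 27 and 12 with DESeq2 size factors, 28 and 11 with the DESeq2 test, 26 and 10 with limma (8 added), 27 and 11 with limma (1 added), 33 and 13 of 380 with no filter, 25 and 11 of 205 with a mean of at least 100, 24 and 10 at 11–13 h and 38 and 11 at 13–15 h. TMM factors moved the median of all strands to -0.08, against 0.03 with total counts, and took miR-238-3p and miR-81-5p (0.91) below the limit. With a limit of 2 log2 units, 18 rose and 0 fell.

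In the phase-paired fit, leaving out single libraries gave 8 to 36 rises and 0 to 16 falls at 12–14 h, 0 to 9 ratio changes, and 0 to 25 rises and 0 to 9 falls at 8–10 h, with 1 residual degree of freedom. The calls of miR-77-3p, miR-48-5p, miR-241-3p, miR-797-3p and let-7-5p were kept whichever library was left out. In the unpaired fit the ranges were 17 to 29 rises and 8 to 10 falls. Without the replicate block of phase pairs, 27 strands rose and 10 fell at 12–14 h, 5 ratios changed, and 5 strands rose and 1 fell at 8–10 h. DESeq2 size factors gave 6 rises at 8–10 h, TMM factors gave 1 trend difference, and a period of 6.5 h gave 8 oscillating strands. The causes were not tested. Strands under 10 counts per library limit what small differences can be seen.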
